A study of Mus musculus with 192 samples.

Results

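Ccl2, Ccr2, Nfkb1, Itgam and Emr1 are 5 of the 95 genes read by quantitative PCR in single cells from mouse skin wounds. They comprise a chemokine, its receptor, an inflammatory transcription factor and a pair of surface genes of macrophages, and each was found in the deposited table by its gene name. Their TaqMan assays are Mm00441242_m1 for Ccl2, Mm01216173_m1 for Ccr2, Mm00476361_m1 for Nfkb1, Mm00434464_m1 for Itgam and Mm00802529_m1 for Emr1, which RefSeq now names Adgre1. On GRCm38.p6 the genes lie at chr11:82035577-82037452, chr9:124101918-124109140, chr3:135584655-135691969, chr7:128062640-128118491 and chr17:57358581-57483529, in that order.

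The cells came from dorsal excisional wounds of recipient mice that shared their circulation with a GFP-expressing donor through parabiosis, and they were sorted as lineage-negative and GFP-positive, so that the genotype names the recipient and GFP marks the donor. EKO cells came from recipients with an endothelial knockout of the chemokine Cxcl12, and WT cells from wild-type recipients. Each genotype had 96 cells, split evenly over sets A and B. The aim was to characterise progenitor cells recruited to wounds of each genotype. The sources used here do not give the driver of the knockout, the antigens of the lineage gate, or the strain, age and number of the mice. Lineage gates often include the protein that Itgam encodes, so such a sort can deplete macrophages.

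Injured tissue releases Ccl2, which draws monocytes that carry its receptor Ccr2 out of the bone marrow and into the wound. There they mature into macrophages, which carry the integrin chain Itgam and the surface receptor Emr1, also known as the antigen of a widely used macrophage antibody. Nfkb1 encodes a subunit of NF-kB, a transcription factor family that switches on inflammatory genes, Ccl2 among them.

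RefSeq promoter entries of GRCm38.p6 were held for Ccr2 and Itgam, and Ccl2, Nfkb1 and Adgre1 are named only. The stretch before the start of Itgam is shown because this promoter is a known target of PU.1, a transcription factor that drives the myeloid fate and that the panel does not read. It covers chr7:128062390-128062639 on the plus strand, and capitals mark each match to GAGGAA, the core letters that PU.1 binds, on either strand (TTCCTC on the opposite one).
Itgam: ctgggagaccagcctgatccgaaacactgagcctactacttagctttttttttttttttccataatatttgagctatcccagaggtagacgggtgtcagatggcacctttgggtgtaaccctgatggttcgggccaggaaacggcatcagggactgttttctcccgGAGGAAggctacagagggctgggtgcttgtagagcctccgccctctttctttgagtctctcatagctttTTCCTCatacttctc
The 300-base Itgam window, which runs 50 bases past the start, held 3 matches, 2 of them in the 250 bases shown. The Ccr2 window of the table, chr9:124101933-124102232, held 0, but it lies wholly inside the span given for Ccr2 and not before its start. Of 32851 mouse promoter windows of the same length, 28.3% held the motif, and a match is a description of letters and not a binding site.

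The value per reaction is the cycle threshold (Ct), where lower values mean higher levels and each cycle is close to a doubling. Reactions at 40 were read as not detected, which was 69.7% of 18432, and cells detected between 4 and 70 of the 96 assays. The 170 cells with at least 10 assays were kept, 77 EKO and 93 WT. This filter left out 19 EKO and 3 WT cells, so it fell mostly on EKO cells, and the shares by genotype depend on it. No label names an animal and each deposited sample is 1 cell, so a genotype is a single sample without replicates, and no difference was tested. The 95% intervals of shares are exact (Clopper-Pearson) and reflect counting error alone. Beside a count of 0 the limit given is 3 counts over the number of cells, which is lower than the exact bound. In each set the WT cells hold the lower cell numbers and the EKO cells the higher ones, so genotype and position cannot be told apart.

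Cells were placed in classes by transcripts that are not among the 5 genes. Collagen-high cells had a Col1a1 Ct below 16, and the limit fell in a gap between 14.25, the latest Col1a1 Ct inside the class, and 17.04, the earliest outside it. This class held 46 cells (21 EKO and 25 WT) with a median of 52 assays detected. Of the 46, 45 detected Thy1 and all 46 Pdgfra, which are among the 7 fibroblast markers on the panel. Thy1 was not particular to the class, since 73 of 94 Nfkb1 cells with at least 24 assays held it. Ptprc-detecting cells, which detected the leukocyte gene Ptprc and were not collagen-high, numbered 71 (36 EKO and 35 WT) with a median of 28 assays. All 6 fibroblast markers other than Col1a1 had a share at least 20 points higher in collagen-high than in Ptprc-detecting cells, with one direction in each set. So did 47.9% of 94 assays. The remaining 53 cells (20 EKO and 33 WT) had a median of 15 assays. The median Ct of the reference gene Actb was 10.4 in collagen-high, 11.2 in Ptprc-detecting and 17.1 in the remaining cells, so RNA yield moved with the classes. Its part in the shares below was not tested. Whether each reaction chamber held a single cell was not tested either.

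The ligand Ccl2 was found mainly in collagen-high cells, at levels that few other cells reached. It was detected in 43 of 46 collagen-high cells (93.5%, 82.1 to 98.6%), against 17 of 71 Ptprc-detecting cells (23.9%, 14.6 to 35.5%) and 10 of 53 remaining cells (18.9%, 9.44 to 31.97%). The difference between collagen-high and Ptprc-detecting cells was 69.5 percentage points (53.9 to 78.98, set A 69.9, set B 68.1). It was the sixth highest of 94 assays, over which the median difference was 15.4 points. Among cells with at least 24 assays it was 69.7 points, where Ccl2 was again the only one of the 5 genes to differ by 20 points or more, with one direction in each set, as did 39.4% of assays with a higher share and 7.45% with a lower one.

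Ccl2 Ct values in collagen-high cells ran from 9.57 through a median of 12.1 to 18.6 (SD 2.85, 43 cells). In Ptprc-detecting cells they ran from 11.6 through a median of 19.1 to 20.5 (SD 2.52, 17 cells). The medians differed by -7.01 cycles (set A -6.35, set B -8.00), and the ranges overlapped only through late collagen-high cells and a pair of early Ptprc-detecting ones. Measured against each cell's own median Ct over its detected assays, the difference was -4.99 cycles. Below Ct 16, Ccl2 was found in 37 cells, of which 33 were collagen-high. The 4 others were an EKO Ptprc-detecting cell at Ct 11.6 with 70 assays detected, the most of any cell, another at 12.5, a WT cell of neither class at 14.3 and an EKO cell of neither class at 15.8.

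Late Ccl2 signal was spread over all classes. At Ct 16 or later it was found in 10 collagen-high, 15 Ptprc-detecting and 8 remaining cells. In the 22 cells under 10 assays, which enter no share, 4 detected Ccl2 (18.2%, 5.19 to 40.3%) at Ct 18.5 to 20.7. The 10 WT Ptprc-detecting cells with Ccl2 lay at 18.03 to 20.5, over nearly the same range as these cells that gave little other signal.

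**Figure D1:**
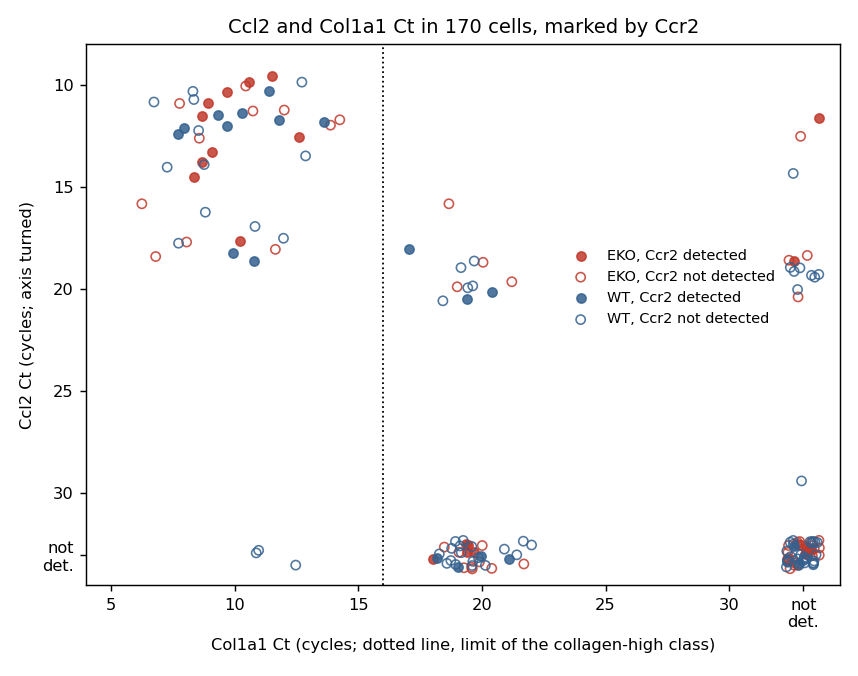
Ccl2 Ct (vertical axis, turned so that higher levels are up) against Col1a1 Ct (horizontal axis) in the 170 kept cells, with reactions not detected set apart at the edges and spread by jitter. Filled points detected Ccr2, red is EKO and blue is WT, and 33 of the 37 cells with Ccl2 below Ct 16 lie left of the dotted limit of the collagen-high class.

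The receptor Ccr2 was found only in kept cells that also detected Ptprc, in both classes. It was detected in 41 of 170 cells, all 41 with Ptprc and all 41 with at least 24 assays. Of collagen-high cells 20 of 46 detected it (43.5%, 28.9 to 58.9%), and of Ptprc-detecting cells 21 of 71 (29.6%, 19.3 to 41.6%). In the 53 cells of neither class it was detected in 0, which allows a share of up to 5.66%. These cells had a median of 15 assays, so few of them reached the 24 assays that every Ccr2 cell had. The difference between collagen-high and Ptprc-detecting cells was 13.9 points (-3.62 to 30.96), close to the 15.4 of the median assay. Among cells with at least 24 assays it was -6.52 points, since 21 of 42 Ptprc-detecting cells then detected Ccr2 (50%).

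Ccr2 Ct values ran from 15.4 through a median of 17.8 to 20.9 in collagen-high cells, and from 14.2 through 17.7 to 21.2 in Ptprc-detecting cells. These ranges lay on top of each other, and the medians differed by 0.10 cycles, against SDs of 1.80 and 1.99. Against each cell's own median Ct, Ccr2 came 1.47 cycles later in collagen-high cells (set A 0.81, set B 1.5).

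Within the collagen-high class the receptor followed Ptprc and the ligand did not. Ccr2 was detected in 20 of the 31 collagen-high cells with Ptprc (64.5%, 45.4 to 80.8%) and in 0 of the 15 without it, which allows up to 20%. Ccl2 was detected in 28 of those 31 (90.3%, 74.2 to 98.0%) and in all 15 of the others. Cd48, another leukocyte gene, was detected in 20 of 31 and 2 of 15. The collagen-high cells with and without Ptprc had medians of 53 and 51 assays and median Actb Ct of 10.7 and 10.1, so they were close in yield. Ccr2 was found in 10 of 13 EKO and 10 of 18 WT collagen-high cells with Ptprc.

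Ligand and receptor were detected in the same cell 25 times, and 20 of these cells were collagen-high. All 20 collagen-high cells with Ccr2 detected Ccl2 as well, while 5 of the 21 Ptprc-detecting cells with Ccr2 did (23.8%). Over all classes 25 of 41 Ccr2 cells held Ccl2 (60.98%, 44.5 to 75.8%), against 34.9% of cells without Ccr2. Among cells with at least 24 assays these shares were 60.98% and 57.4%, which lie close together. Within Ptprc-detecting cells they were 23.8% and 24%, and within collagen-high cells 100% and 88.5%. Cells with both had a median of 53 assays and all other kept cells 22, so the pair was found in cells that detected much of the panel.

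Nfkb1 was the most widely detected of the 5 genes, in 140 of 170 cells (82.4%, 75.8 to 87.8%). It was found in all 46 collagen-high cells, in 63 of 71 Ptprc-detecting cells (88.7%, 79 to 95.01%) and in 31 of 53 remaining cells (58.5%, 44.1 to 71.9%). Among cells with at least 24 assays 94 of 95 held it, and among the 22 cells under 10 assays 0 did, which allows up to 13.6%. Its Ct ran from 11.98 through a median of 14.1 to 20.7 in collagen-high cells (SD 1.80) and from 11.4 through 17.1 to 21.3 in Ptprc-detecting cells (SD 2.11). The difference was -2.99 cycles, or -1.25 against each cell's own median Ct. In the remaining cells the median was 18.7.

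The macrophage genes Itgam and Emr1 were rare and were found mostly in Ptprc-detecting cells. Each was detected in 14 of 170 cells (8.24%, 4.58 to 13.4%), and the 2 genes together in 4. Itgam was found in 1 of 46 collagen-high cells (2.17%), 10 of 71 Ptprc-detecting cells (14.1%, 6.97 to 24.4%) and 3 of 53 remaining cells. Emr1 was found in 0 of 46 collagen-high cells, which allows up to 6.52%, in 13 of 71 Ptprc-detecting cells (18.3%, 10.1 to 29.3%) and in 1 of 53 remaining cells. The Emr1 cells were uneven over the sets: 11 of 42 Ptprc-detecting cells held it in set A and 2 of 29 in set B. At least 1 of the pair was detected in 24 cells, and 19 of these were Ptprc-detecting.

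Both macrophage genes came late. Itgam Ct values ran from 13.9 through a median of 20.5 to 21.96, and Emr1 values from 15.9 through 23.4 to 25.5, over 14 cells each. In either gene a single cell lay below Ct 16. This was the EKO Ptprc-detecting cell with 70 assays, which had Ct 13.9 for Itgam, 15.9 for Emr1, 17.2 for Ccr2, 11.6 for Ccl2 and 11.4 for Nfkb1. It also detected Stab1 at 13.7, known from endothelium and macrophages, and Nos3 at 16.2 and Mcam at 15.7, known from endothelium.

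A second EKO cell of set A, with 63 assays, held all 5 genes too, with Itgam at 17.9 and Emr1 at 22.1, and again with Stab1, Nos3 and Mcam. The other cells with both macrophage genes were 2 WT Ptprc-detecting cells with 19 and 21 assays, at Ct 20.3 and 21.2 for Itgam and 25.5 and 24.5 for Emr1. Neither of these WT cells detected Ccl2 or Ccr2. Of the 41 Ccr2 cells, 6 held Itgam or Emr1, and of the 70 Ccl2 cells 8 did.

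**Figure D2:**
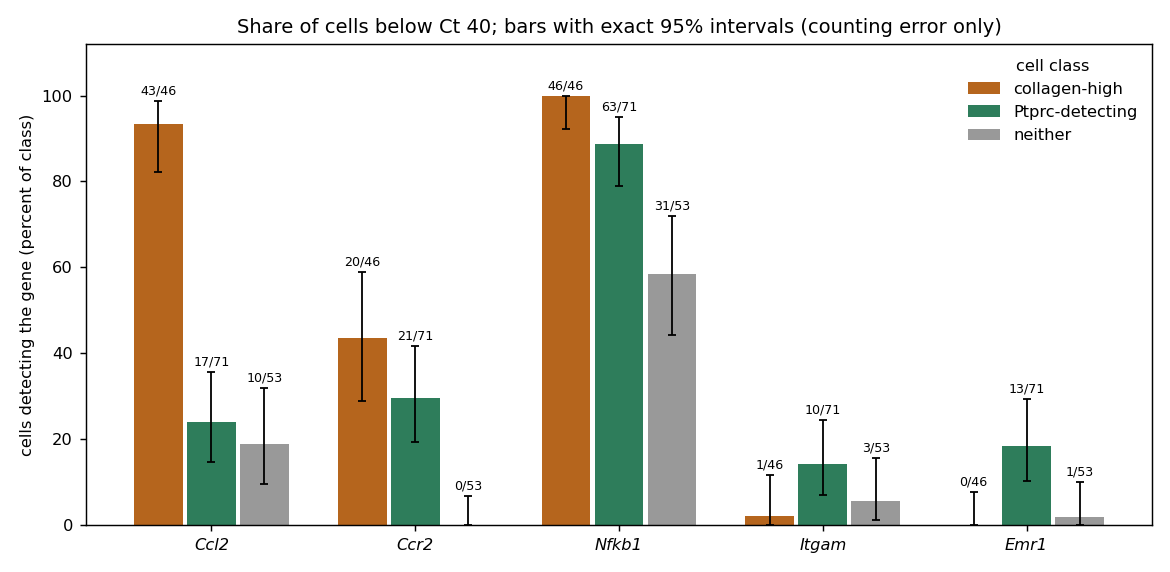
Percent of cells in each class that detected each gene (Ct below 40), with exact 95% intervals that cover counting error only and the counts above each bar. Ccl2 reaches 93.5% in collagen-high cells, Ccr2 is at 0 of 53 in cells of neither class, and Emr1 is at 0 of 46 in collagen-high cells.

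Read against the whole panel, Ccl2 alone of the 5 genes differed between collagen-high and Ptprc-detecting cells by 20 points or more over both sets, with one direction in each. This rule was met by 47.9% of 94 assays with a higher share and by 2.13% with a lower one, and 0 of the 5 were lower. The shares of Itgam and Emr1 differed by -11.9 (-22.01 to -0.82) and -18.3 points (-28.8 to -7.70), the sixth and the fifth lowest of the panel. Among cells with at least 24 assays they differed by -9.73 (-22.9 to 1.63) and -14.3 points (-27.8 to -3.48), the 15th and the 9th lowest. Over all kept cells the interval held 0 for Itgam in each set and for Emr1 in set B. Of the 3 genes with at least 5 detecting cells per class and set, Ccl2 and Nfkb1 had an earlier median by at least 1 cycle with one direction in each set, as did 48.8% of 43 assays, and 0 of the 3 had a later one, against 4.65%. Against each cell's own median Ct, Ccl2 and Nfkb1 were earlier (27.9% of assays) and Ccr2 later (30.2%).

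By pattern, 51 cells held Nfkb1 alone of the 5 genes and 20 held none. Ccl2 with Nfkb1 was found in 34 cells, 23 of them collagen-high. Ccl2, Ccr2 and Nfkb1 without a macrophage gene were found in 22 cells, 19 of them collagen-high. Ccr2 and Nfkb1 without the other 3 were found in 13 cells, all 13 Ptprc-detecting.

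The assays detected most like each gene were taken among the 95 cells with at least 24 assays, by the phi coefficient of detection, which is 1 for identical patterns. All assays share the same cells and chips, so these are descriptions. For Ccl2 they were Cxcr7 (0.66), the scavenging receptor of Cxcl12 now named Ackr3, the metalloproteinase inhibitor Timp1 (0.61) and the growth factor receptor Pdgfra (0.60). Cxcr7 was found in 47 of 56 Ccl2 cells (83.9%) and in 17.9% of cells without Ccl2. These values pool the classes. Within the 46 collagen-high and 42 Ptprc-detecting cells, phi was 0.38 and 0.31 for Cxcr7, and -0.04 and 0.30 for Timp1. For Pdgfra it was -0.125 in Ptprc-detecting cells, and every collagen-high cell detected Pdgfra. For Ccr2 they were Ptprc (0.48), Cd48 (0.40) and the adhesion and Wnt protein Ctnnb1 (0.35). Cd48 was found in 36 of 41 Ccr2 cells (87.8%) and in 50% of the others. Within collagen-high and Ptprc-detecting cells, phi was 0.56 and 0.09 for Cd48, and 0.32 and 0.44 for Ctnnb1. For Ptprc it was 0.61 in collagen-high cells.

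For Itgam the most alike were Nos3 (0.48), Stab1 (0.31) and Angpt2 (0.31), and for Emr1 Mcam (0.27), the stem cell factor receptor Kit (0.20) and the BMP antagonist Nog (0.19). Only 6 of the 95 cells held Itgam and 6 held Emr1, among them the EKO cells with 63 and 70 assays. For Nfkb1 they were Runx1 (0.24), Col3a1 (0.19) and Thy1 (0.19), set by the 1 cell that lacked Nfkb1.

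The wider lists around these genes were counted by the same rule of 20 points. Of the 6 assays for chemokines and their receptors on the panel, 3 were higher in collagen-high cells and 0 lower, with a median difference of 29.8 points, against 15.4 over all assays. That is close to the 47.9% of the panel that was higher by this rule. With at least 24 assays 3 were higher and 1 lower, against 39.4% and 7.45% of the panel. The 3 were Ccl2, Cxcr7, found in 44 of 46 collagen-high against 6 of 71 Ptprc-detecting cells, and the Cxcl12 assay Mm00457276_m1, found in 21 of 46 against 0 of 71. The other Cxcl12 assay, Mm00445552_m1, gave signal in all cells of both classes. Cxcr4, the receptor through which Cxcl12 draws blood progenitors, stood at 14 of 46 collagen-high and 35 of 71 Ptprc-detecting cells.

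Of 9 measured NF-kB subunits and genes known to respond to NF-kB, 6 were higher in collagen-high cells and 0 lower, with a median of 23.1 points, against 47.9% of the panel. Among cells with at least 24 assays 3 of the 9 were higher, against 39.4% of the panel. Besides Ccl2, the 6 over all kept cells included the adhesion molecules Vcam1 (82.6% of collagen-high and 16.9% of Ptprc-detecting cells) and Icam1 (78.3% and 43.7%). The others of the 6 were the growth regulators Myc (93.5% and 29.6%) and Ccnd1 (36.96% and 15.5%), and the survival gene Bcl2 (45.7% and 22.5%). Hif1a and Mmp9 differed by 4.23 and 3.06 points.

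Of 9 factors that wound macrophages are known to make, 6 were higher in collagen-high cells and 0 lower, with a median of 27.1 points, against 47.9% of the panel. Among cells with at least 24 assays 6 of the 9 were again higher, against 39.4%. Igf1, a growth factor of repair, was found in 31 of 46 collagen-high cells and 4 of 71 Ptprc-detecting cells. Timp1 was found in 45 of 46 and 8 of 71. Vegfa was found in 44 of 46 and 26 of 71, Fgf2 in 27 of 46 and 5 of 71, Pdgfa in 17 of 46 and 7 of 71, and Hgf in 15 of 46 and 5 of 71. Tgfb1 and Pdgfb did not meet the rule, with 13.2 and -3.86 points, nor did Mmp9. Fibroblasts make many of these factors as well. The 4 myeloid markers on the panel (Itgam, Emr1, Ccr2 and Mmp9) had a median of -4.42 points and none met the rule.

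Between genotypes, none of the 5 genes differed by 10 points or more over both sets with one direction in each, where 20.8% of the 96 assays were higher in EKO cells by that rule and 0.00% lower. Ccl2 was present in 31 of 77 EKO and 39 of 93 WT cells, a difference of -1.68 points (-16.1 to 12.99, set A -14.6, set B 11.8). Ccr2 was present in 22 of 77 EKO cells (28.6%) and 19 of 93 WT cells (20.4%), which differ by 7.37 points in set A and by 8.95 points in set B. The 8.14 points for Ccr2 had an interval of -4.71 to 21.1 and lay near the median of 5.70 over all assays.

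Nfkb1 gave signal in 66 of 77 EKO and 74 of 93 WT cells, a difference of 6.14 points (-5.63 to 17.3). Itgam was found in 8 EKO and 6 WT cells (3.94 points, -4.61 to 13.4), and Emr1 in 6 EKO and 8 WT cells (-0.81 points, -9.36 to 8.38). The signs of Itgam and Emr1 turned between the sets. The intervals of the 5 differences all held 0.

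EKO cells detected a median of 34 assays and WT cells one of 21. Among cells with at least 24 assays, of which 53 were EKO and 42 WT, the medians were 45 and 46.5 assays. There 1 of the 5 genes met the rule, Ccl2, which was lower in EKO cells, as were 11.5% of assays, and 0 were higher, against 4.17%. It was found in 28 of 53 EKO and 28 of 42 WT cells, a difference of -13.8 points (-31.9 to 5.96, set A -22.5, set B -7.94). Of those cells 21 of 53 EKO and 25 of 42 WT were collagen-high.

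**Figure D3:**
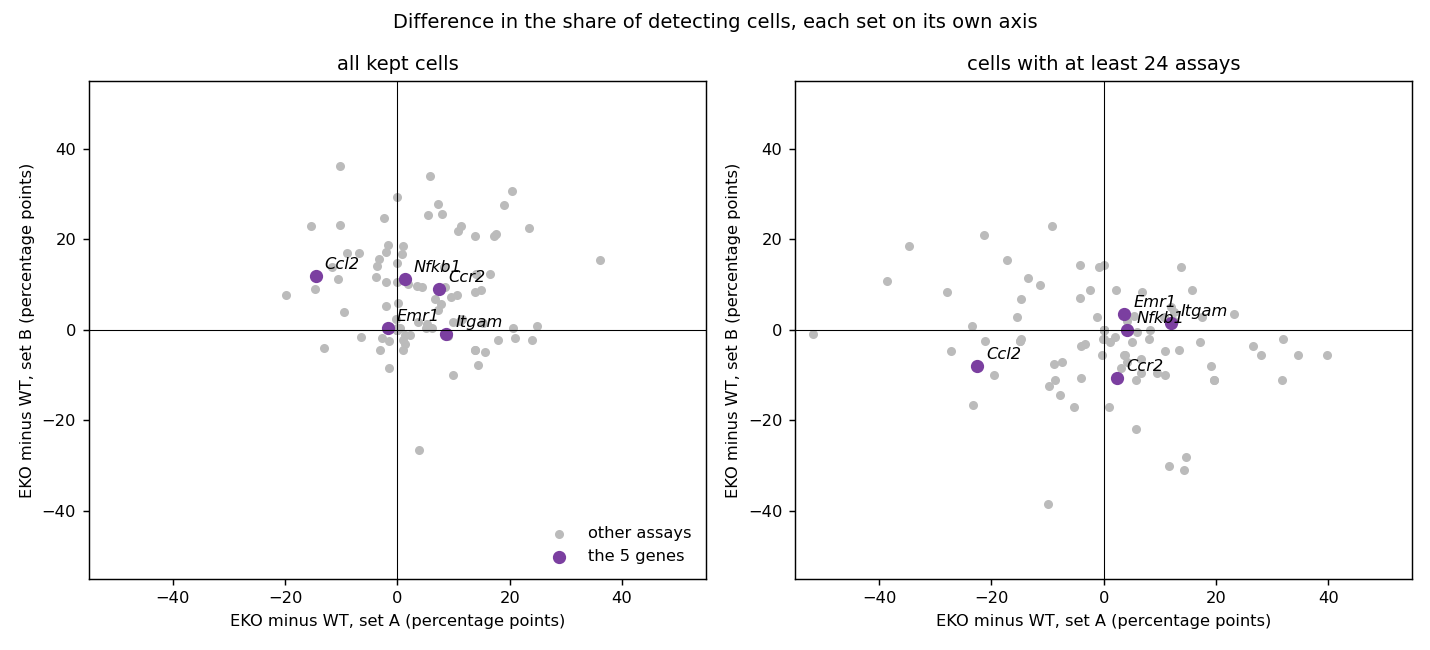
Difference in the share of detecting cells, EKO minus WT in percentage points, in set A (horizontal axis) and set B (vertical axis), for the 5 genes (purple) and the other assays (grey). On the left are all kept cells and on the right cells with at least 24 assays, and Ccl2 is at -14.6 and 11.8 on the left and at -22.5 and -7.94 on the right.

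Within the collagen-high class Ccl2 gave signal in 21 of 21 EKO and 22 of 25 WT cells, a difference of 12 points (-5.33 to 29.96) that met the rule. So did 12.5% of the 96 assays, while 0 of the 5 genes were lower, against 8.33%. The 3 collagen-high cells without Ccl2 were WT cells with Ptprc. Ccr2 was present in 10 of 21 EKO cells, against 10 of 25 WT cells. Nfkb1 was found in every cell of the class in both genotypes.

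Within the Ptprc-detecting class Nfkb1 met the rule, with 34 of 36 EKO (94.4%) and 29 of 35 WT cells (82.9%), a difference of 11.6 points (-3.91 to 27.6). By that rule 35.4% of assays were higher in EKO and 2.08% lower, and 0 of the 5 genes were lower. Ccl2 was found in 7 of 36 EKO cells, against 10 of 35 WT cells, and Ccr2 in 12 of 36 EKO and 9 of 35 WT cells. Itgam was found in 5 cells of each genotype, and Emr1 in 6 EKO and 7 WT cells. EKO cells of this class detected a median of 30.5 assays and WT cells 21.

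Among Ptprc-detecting cells with at least 24 assays, Ccr2 was found in 12 of 28 EKO cells (42.9%), against 9 of 14 WT cells (64.3%). The difference of -21.4 points had an interval of -46.8 to 9.84. Set A gave 3.33 points and set B -52.6 (-75.2 to -4.64), where it rested on 4 of 13 EKO and 5 of 6 WT cells.

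The level of Ccl2 differed more between genotypes over all cells than within the classes. Over all detecting cells its Ct ran from 9.57 through a median of 13.3 to 20.4 in 31 EKO cells and from 9.87 through 17.5 to 29.4 in 39 WT cells. The medians differed by -4.23 cycles (set A -1.69, set B -3.51). Among cells with at least 24 assays they differed by -1.11 cycles, over 28 EKO and 28 WT cells. Early Ccl2, below Ct 16, made up 20 of the 31 EKO and 17 of the 39 WT cells with Ccl2. Within the collagen-high class the median Ct was 11.97 in EKO and 12.18 in WT cells, which differ by -0.21 cycles (set A -0.54, set B 0.20). Within the Ptprc-detecting class the medians were 18.7 in 7 EKO and 19.2 in 10 WT cells, which differ by -0.54 cycles as deposited and by 2.79 cycles relative to the mean of Actb and B2m. In cells of neither class the difference was -1.06 cycles, over 3 EKO and 7 WT cells.

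The median level of Nfkb1 as deposited was higher in EKO cells over all cells and in the Ptprc-detecting class. Over all detecting cells the median Ct was 15.2 ± 2.53 in 66 EKO cells and 17.7 ± 2.25 in 74 WT cells (SD over cells), which differ by -2.53 cycles. Among cells with at least 24 assays the Nfkb1 medians differed by -0.91 cycles, less than 1 cycle, over 53 EKO and 41 WT cells. Over the panel, 35% of 60 assays with enough detecting cells came earlier in EKO cells by at least 1 cycle with one direction in each set, and 6.67% later. Of the 3 genes it could be read for, Ccl2 and Nfkb1 were earlier, and Ccr2, at 17.9 in EKO and 17.6 in WT cells, met it in neither direction. The rarer Itgam had a median Ct of 20.5 in 8 EKO and 20.7 in 6 WT cells, and Emr1 one of 22.4 in 6 EKO and 23.5 in 8 WT cells. The median difference over all assays was -0.81 cycles. Against each cell's own median Ct, where 23.3% of assays were earlier, the differences were -2.88 for Ccl2 and -1.18 for Nfkb1. Relative to the mean of Actb and B2m they were -0.74 for Ccl2 and -0.44 for Nfkb1, below 1 cycle for both.

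In Ptprc-detecting cells Nfkb1 ran from 11.4 through a median of 15.5 to 21.3 in 34 EKO cells, and from 15.3 through 18.1 to 20.6 in 29 WT cells. In set B the EKO cells lay between 13.8 and 17.6 and the WT cells between 16.4 and 19.8, so the ranges overlapped over little more than 1 cycle. In set A the EKO range, from 11.4 to 21.3, enclosed the whole WT range. The difference was -2.64 cycles (set A -1.61, set B -2.47), the third earliest of 29 assays with a median of -0.76. By the rule of 1 cycle 37.9% of these assays were earlier and 3.45% later, and Nfkb1 was the only one of the 5 genes with enough cells.

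The reference gene Actb also came earlier in EKO cells of this class, with a median Ct of 10.2 against 12.1 in WT cells. Relative to the mean of Actb and B2m, the Nfkb1 difference was -1.42 cycles (set A -0.41, set B -2.18), where 13.8% of assays were earlier and 20.7% later. Relative to each cell's own median Ct it was -1.47 cycles (20.7% of assays earlier). With at least 24 assays it was -1.47 cycles over 28 EKO and 13 WT cells, where 19% of assays were earlier and 9.52% later by the same rule.

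Of the 6 endothelial markers on the panel, 1 was higher in EKO cells of this class by the rule of 10 points, against 35.4% of all assays. The median was 12.1 points over the 6, against 6.59 over all assays. At least 2 of the 6 markers were present in 5 of 36 EKO cells, against 1 of 35 WT cells. In collagen-high cells at least 2 were more common, in 6 of 21 EKO and 12 of 25 WT cells. Cdh5, 1 of the 6 markers, was found in 6 EKO and 0 WT Ptprc-detecting cells. EKO Ptprc-detecting cells detected a median of 30.5 assays and WT ones 21. Without the 6 Ptprc-detecting cells that held at least 2 of these markers the Nfkb1 medians were 15.96 in 29 EKO and 18.2 in 28 WT cells, which differ by -2.22 cycles. The 31 EKO and 34 WT cells then left could still hold 1 marker, and they detected medians of 30 and 21 assays. What part endothelial signal has in the Nfkb1 difference was not tested.

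In collagen-high cells the Nfkb1 medians were 13.7 ± 1.15 in 21 EKO and 14.2 ± 1.96 in 25 WT cells, which differ by -0.58 cycles (set A -0.80, set B -0.28). Neither Ccl2 nor Nfkb1, the genes with enough cells there, differed by 1 cycle, while 33.3% of 48 assays were earlier in EKO cells and 8.33% later. The other 3 genes had too few detecting cells per set in at least 1 genotype. In cells of neither class the Nfkb1 medians were 18.7 in EKO and 18.9 in WT cells.

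**Figure D4:**
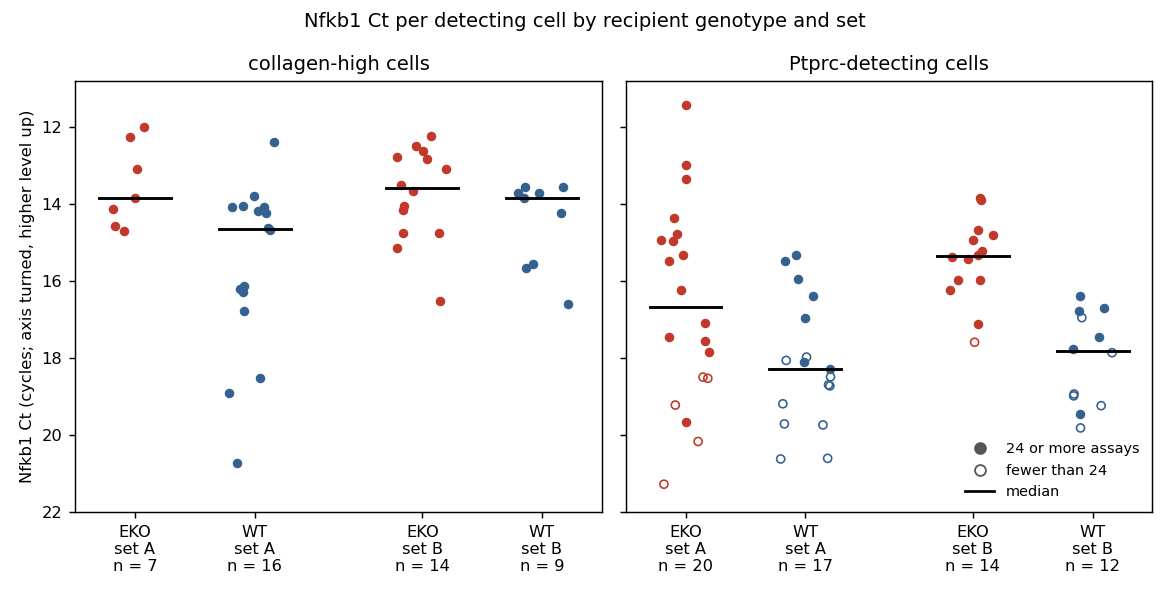
Nfkb1 Ct per detecting cell (vertical axis, turned so that higher levels are up) by genotype and set, in collagen-high cells (left) and Ptprc-detecting cells (right), with filled points for cells with at least 24 assays and lines at the medians. In set B Ptprc-detecting cells the EKO points lie between 13.8 and 17.6 and the WT points between 16.4 and 19.8.

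Among Nfkb1 and the genes that respond to NF-kB, several were more often detected in EKO cells of the Ptprc-detecting class. In that class EKO cells detected a median of 30.5 assays and WT cells 21. Of the 9 measured, 5 met the rule of 10 points with a higher share in EKO and 0 with a lower one, against 35.4% of all assays, and the median was 11.6 points against 6.59 over all assays. Bcl2 was found in 14 of 36 EKO cells, against 2 of 35 WT cells. Vcam1 was found in 10 EKO and 2 WT cells, Icam1 in 19 and 12, and Myc in 14 and 7. Nfkb1 itself was the fifth, and Ccl2 (-9.13 points), Ccnd1 (-8.89 points) and Hif1a (34 of 36 EKO and 34 of 35 WT cells) had lower shares in EKO. Mmp9 was found in 3 EKO and 1 WT cells of the class. Over all kept cells 4 of the 9 were higher and 0 lower, with a median of 7.02 points against 5.70 and 20.8% of the panel higher. With at least 24 assays, again over all classes, 2 were higher and 1 lower, against 4.17% and 11.5% of the panel. The median there was -0.22 points against -0.07. These counts were not made within Ptprc-detecting cells with at least 24 assays. Of the macrophage factors 4 of 9 were higher in EKO Ptprc-detecting cells, with a median of 8.25 points, and 1 of 9, Timp1, over all kept cells. Of the chemokine and receptor assays 1 of 6, Cxcr4, was higher both in Ptprc-detecting and in all kept cells, and of the myeloid markers 0 of 4 in either.

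**Figure D5:**
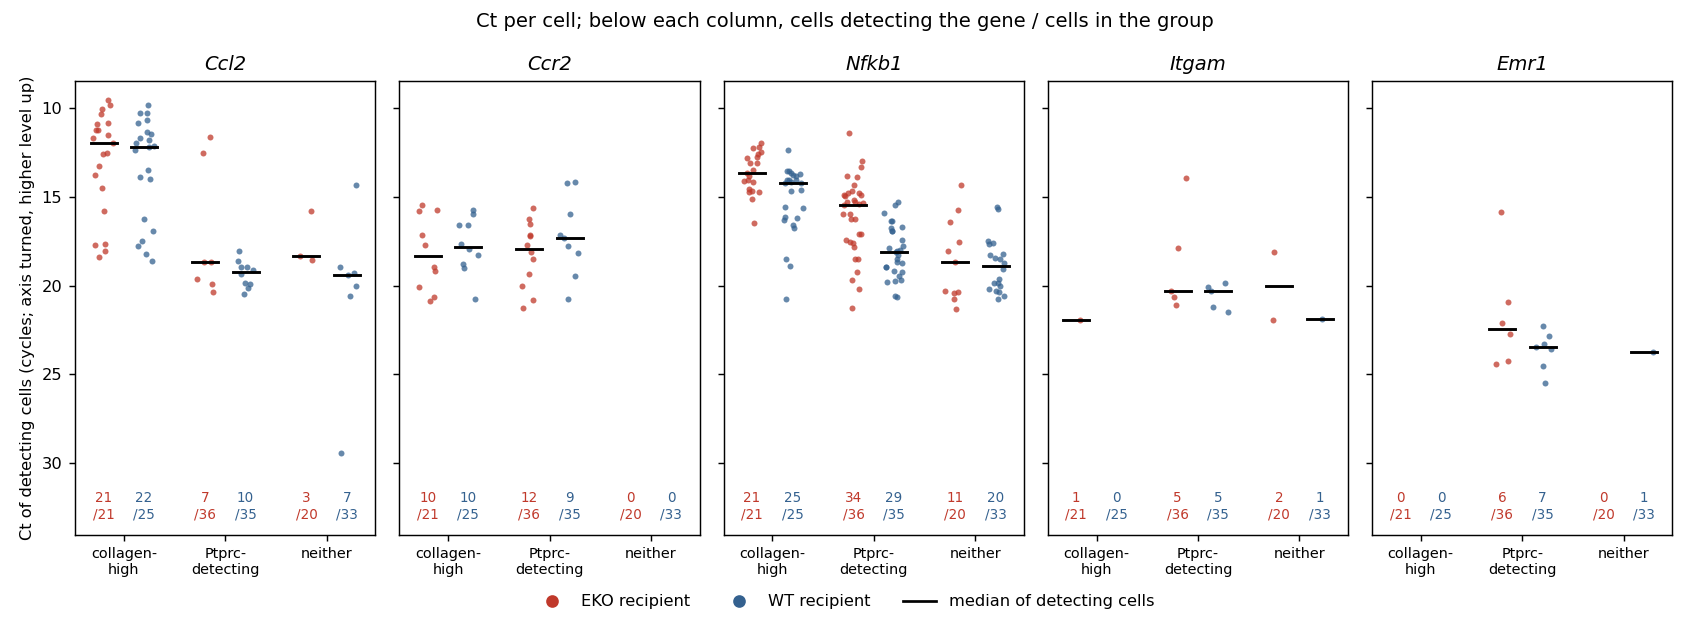
Ct of each of the 5 genes in detecting cells (vertical axis, turned) by class and genotype, with EKO in red left of WT in blue, bars at the medians, and the number of detecting cells over the cells of the group below each column. Of collagen-high cells with Ccl2, 33 of 43 lie below Ct 16, as do 4 of the other cells with Ccl2, and Nfkb1 in Ptprc-detecting cells has medians of 15.5 in EKO and 18.1 in WT cells.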

How the data were processed

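Ct values of 96 TaqMan assays in 192 single cells were taken from 1 table deposited by the authors, which names no unit. Per the file, values end at 40 with none higher, and they were read as raw cycle thresholds without normalization (an "other" unit, on which no count or intensity test was run). The sources used here do not name the instrument software, the threshold or the preamplification. Genotype and set came from the labels, which speak of each chip, so the sets were treated as chips. No value column was left unused, and 0 pairs of cells were identical.

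The 5 genes, the gene lists and the rules were chosen with earlier results of these data known. A reaction below Ct 40 was detected, and cells with at least 10 of 96 assays were kept. A share differed where it did so by at least 10 points (genotypes) or 20 points (classes) with the same sign in both sets, and a median Ct by at least 1 cycle likewise, with at least 5 detecting cells per group and set. Intervals of shares are exact 95% and those of differences are Newcombe's, from Wilson limits. Col1a1 and Ptprc define the classes and were left out of class counts, which leaves 94 assays. All named genes are the 5, the 3 assays with the highest phi coefficient for each (over assays detected in 10 to 90% of cells with at least 24 assays) and list members on the panel. The marker lists had 0 lymphoid genes and 1 epithelial gene, Trp63, on the panel. Trp63 was found in 4 EKO and 1 WT cells. Doublets were not called. The functions were tested on simulated data. Cells are not replicates, so no p-value was computed. Alternatives were other Ct limits, cell filters, class limits, Ct scales and each set alone. Python 3.11.15, NumPy 2.4.6, pandas 2.3.3, SciPy 1.17.1 and matplotlib 3.10.9 were used. Positions and the promoter come from RefSeq tables of GRCm38.p6.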

Additional observations from a re-analysis of the deposited data

Results flagged for a closer look

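Ccl2 gave signal in cells that entered no comparison. Of the 22 cells under 10 assays, 4 detected it (18.2%), above the 13.6% that a count of 0 allows, at a median Ct of 19.5. All 4 were EKO cells, 2 in each set, with 7 or 8 assays detected, and 19 of the 22 cells were EKO. Nfkb1, Ccr2 and Emr1 were detected in 0 of the 22, and Itgam in 1 EKO cell at Ct 21.8.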

How the results depend on the processing

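No call for which an alternative was run changed its sign. Between genotypes no share over all kept cells was called, so none could. The share calls between genotypes within a class or with at least 24 assays had no alternatives run. Differences in share that were not called did change sign, those of Nfkb1 and Ccr2 below among them. No paired analysis was possible because each sample is 1 cell, the cell numbers do not pair EKO with WT cells, and no test was made. Alternatives within the 95% interval of a share, or within 1 SD over cells of a Ct difference, numbered 44 of 45 for shares between genotypes, 57 of 60 for shares between classes, 26 of 27 for Ct between genotypes and 35 of 36 for Ct between classes.

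With no filter on cells, which brings back 19 EKO and 3 WT cells, the Nfkb1 share differed by -8.33 points between EKO and WT cells. Set against all cells with Ptprc, the collagen-high difference of Ccl2 was 49.4 points, the classes then sharing cells. With at least 24 assays the class difference of Ccr2 was -6.52 points. In set B alone that of Emr1 was -6.90 points. With failed reactions counted at 40 the Ccl2 medians differed by 0 cycles between genotypes, both lying at 40, and by -27.7 between classes.

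Of the co-detection shares 79 of 86 lay within the interval. With at least 24 assays, 98.2% of Ccl2 cells held Nfkb1, and of Itgam cells 66.7% held Ccl2, 83.3% Ccr2 and 100% Nfkb1. In set A alone 100% of Itgam cells held Nfkb1, and in set B alone 100% of Emr1 cells held Nfkb1 and 0% Ccr2. Of the 3 most alike assays, 1 was shared for Ccl2 in set B alone. Over all kept cells 0 were shared for Nfkb1, Itgam and Emr1, and 0 for Itgam in set B alone. The causes of these moves were not tested. The alternatives for Nfkb1 within Ptprc-detecting cells (-2.64 cycles, with -1.42 to -2.47 when one choice was changed at a time, and -0.41 in set A on the Actb and B2m scale) and for Ccr2 in collagen-high cells by Ptprc were chosen after seeing the data. The number of cells limits each share, and Itgam and Emr1 rest on 14 detecting cells each.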
